A study of Homo sapiens with 18 samples.

Results

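The genes described here encode proteins of the cytosolic ribosome and related proteins, such as RPL7L1, a nucleolar relative of RPL7 with a role in assembly. They were taken from the deposited expression table by symbol: RPL or RPS followed by a number and, where present, a paralog letter, plus RPLP0, RPLP1, RPLP2 and RPSA. Pseudogenes and the RPS6K kinases were left out. This gave 75 genes of 13992 listed, 49 of the large subunit (RPL) and 26 of the small subunit (RPS), and all 75 passed the filter on low values that left 12127 genes for testing. Further ribosomal proteins whose symbols are not among these rows, RPS2, RPS9 and RPS18 among them, are not analysed here. Messenger RNA came from HMC3, an immortalized human line used as a model of microglia, of wild-type genotype per the labels. The cells received oxidized low-density lipoprotein (oxLDL), a lipid particle that scavenger receptors take up, at 100, 50, 10, 2.5 or 1 µg/ml, or none (0 µg/ml), and were harvested at 24 h, with 3 libraries for every dose and 18 in all. The series as a whole concerns CD36 and lipid accumulation in reactive microglia. Nothing in the labels ties the 3 libraries of a group to separate cultures. A p-value here therefore sets a difference against library-to-library spread that could be purely technical.

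A ribosome is built from a small subunit, which reads the messenger RNA, and a large subunit, which joins amino acids. Each contains ribosomal RNA and many proteins, most of which are needed in equal copy number. The messenger RNAs of these proteins start with an uninterrupted run of pyrimidines, the 5′ terminal oligopyrimidine (TOP) tract. Through this tract the mTOR pathway and the RNA-binding protein LARP1 control their translation and storage, so their protein output can move while their RNA does not. These genes are among the most strongly transcribed of any cell, and their RNA is short and very stable.

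To show this shared start, 30 bases around the transcription start (10 bases before it and 20 from it) are printed for genes on which the results below turn. They are from RefSeq, assembly GRCh38.p14, on the sense strand and 5′ to 3′. Capitals mark the tract where it was found.
RPLP0: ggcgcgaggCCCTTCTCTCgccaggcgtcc
RPLP1: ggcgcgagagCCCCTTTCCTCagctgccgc
RPLP2: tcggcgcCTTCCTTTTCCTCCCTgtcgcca
RPL35: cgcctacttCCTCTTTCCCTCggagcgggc
RPS21: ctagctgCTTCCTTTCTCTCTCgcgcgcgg
RPL38: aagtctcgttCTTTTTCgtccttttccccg
RPS27: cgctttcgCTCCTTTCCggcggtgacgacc
RPS27L: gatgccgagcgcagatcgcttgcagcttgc
RPL26: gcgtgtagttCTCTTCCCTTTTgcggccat
RPL26L1: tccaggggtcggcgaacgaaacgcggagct
RPL22: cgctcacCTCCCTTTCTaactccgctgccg
RPL22L1: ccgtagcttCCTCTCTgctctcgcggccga
RPL7L1: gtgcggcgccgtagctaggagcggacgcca
The tract was longest in this set in RPLP2, at 16 bases, and 15 bases long in RPS21. RPS27 and RPL26 carried it, and their paralogs RPS27L and RPL26L1 did not, whereas RPL22 and its paralog RPL22L1 both did. RPL7L1, which below is the only member called at 50 µg/ml, had none. The windows of the stalk genes lie at chr12:120201092-120201121 on the minus strand (RPLP0), chr15:69452808-69452837 on the plus strand (RPLP1) and chr11:809957-809986 on the plus strand (RPLP2). Those of RPL35 and RPS21 lie at chr9:124861938-124861967 (minus) and chr20:62387093-62387122 (plus), and that of RPL38 at chr17:74203668-74203697 (plus). RPS27 starts in chr1:153990752-153990781 (plus) and RPS27L in chr15:63157458-63157487 (minus). RPL26 starts in chr17:8383174-8383203 (minus), RPL26L1 in chr5:172958719-172958748 (plus), RPL22 in chr1:6199576-6199605 (minus), RPL22L1 in chr3:170870176-170870205 (minus) and RPL7L1 in chr6:42879606-42879635 (plus).

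Over all members with a start in the table, 48 of 61 (78.7%) had a tract, counted as a C from 3 bases before to 4 bases after the annotated start with at least 4 C or T following it. The same search found it in 9 of 69 genes of mitochondrial ribosomal proteins (13%) and in 4374 of 27305 genes overall (16%). Besides RPS27L, RPL26L1 and RPL7L1, the 13 members without it were RPL4, RPL6, RPL9, RPL15, RPL17, RPL27, RPS4X, RPS15, RPS26 and RPS29. No match says only that these letters are not at the annotated start. In the 300 bases around the start (250 before, 50 from it), the letters CTCTTTCC on the sense strand were present in 11 members (18%), in 0 mitochondrial ribosomal protein genes and in 1.93% of all genes. CCGGAAG, the core of sites for ETS factors, was present on either strand in 34.4% of members, 43.5% of the mitochondrial group and 12.2% of all genes. AAGATGGC, the core of YY1 sites, was present on either strand in 11.5%, 30.4% and 3.52%, and TATAAA on the sense strand in 4.92%, 1.45% and 8.99%. A match is a description of the letters, not of binding.

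Recovered totals ran from 13919066 to 37382244 reads per library. Of 16 markers of microglia and macrophages 2 were listed in the table, CD68 and CD14, at a sum of 11.7 to 17.4 FPKM, whereas 7 of 10 markers of fibroblasts and pericytes were listed, at 989 to 1570 FPKM. Neuronal markers (3 of 5 listed) summed to 27.1 to 37.1 FPKM and those of astrocytes (2 of 4) to 1.6 to 2.13 FPKM, and 1 of 4 each for oligodendrocytes and endothelium stayed under 0.1 FPKM. The defining microglial genes AIF1, CX3CR1, P2RY12 and TMEM119 are not among the listed rows, so the label of a microglial line is not borne out by these markers.

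The members held 14.3% to 15.8% of all FPKM and 6.39% to 7.43% of the recovered reads of a library, and their summed level was 55342 to 64962 FPKM. FPKM is a read number per length and per library total. The recovered length far exceeds the main transcript for some members, as given below, so the order of genes by level is approximate. FPKM is a share of a library: fewer cells and less RNA per cell cannot be told apart, and a fall of all RNA would not be seen. RPL35, a large subunit protein near the exit of the peptide tunnel, had the highest mean over 18 libraries, 2270 FPKM. RPS15, in the head of the small subunit, followed with 1940 FPKM, and RPS21, one of the smallest small-subunit proteins, with 1900 FPKM. The median of a gene was 808 FPKM in the large and 780 FPKM in the small subunit.

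**Figure D1:**
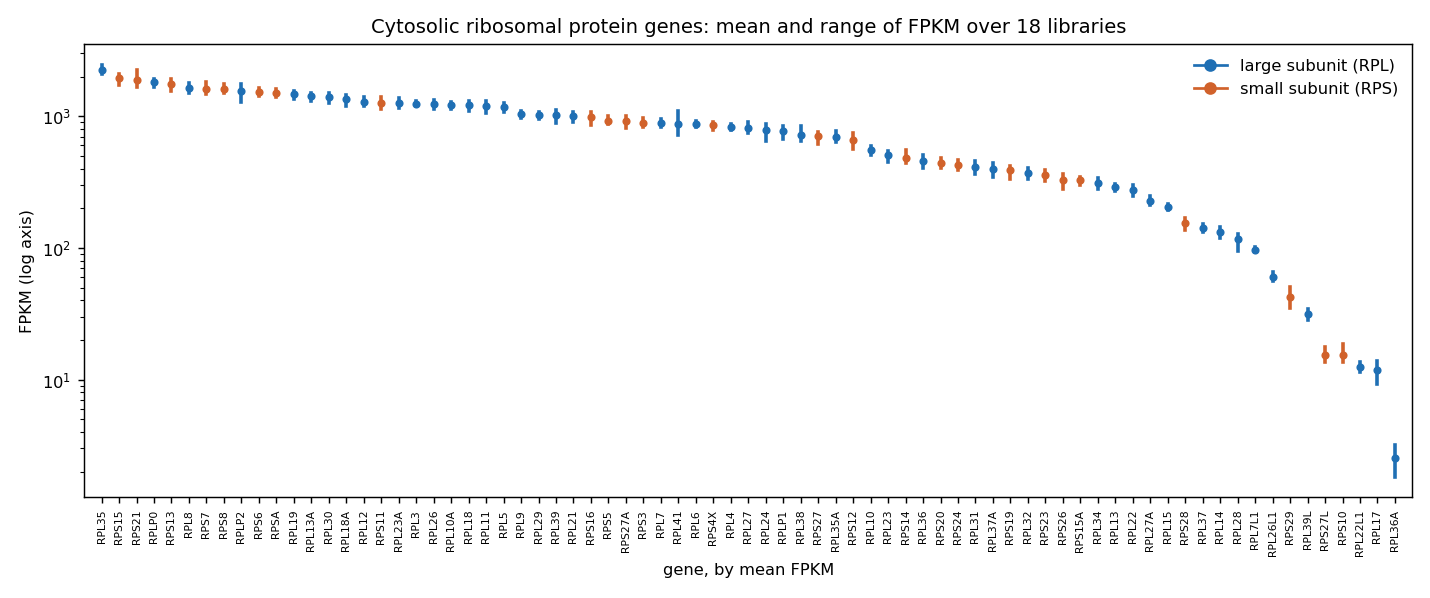
Mean FPKM of the 75 genes over 18 libraries on a log axis (points) with the lowest and highest library (lines), ordered by mean; blue marks the large and orange the small subunit. RPL35 (2270 FPKM) stands at the left end and RPL36A (2.54 FPKM) at the right, and the medians of the subunits are 808 and 780 FPKM.

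At the low end RPL36A had 2.54 FPKM, RPL17 11.7 FPKM and RPL22L1 12.5 FPKM. RPL36A had 3.2, 2.63 and 2.78 FPKM in the controls and 1.83, 2.67 and 2.83 FPKM at 100 µg/ml, which overlap. It rested on 25 to 76 reads per library and RPL17 on 143 to 452, and RPS10 on 165 to 466, so these values carry the most counting error among the members named. RPL17 and RPL36A are core proteins of the large subunit. RPL17 shares 35.3% of its exon bases with other genes, among them the readthrough gene RPL17-C18orf32. RPL36A shares 8.4% with RPL36A-HNRNPH2. Whether shared bases lower the counted level of either gene was not tested. RPL36AL, a near-identical copy of RPL36A on another chromosome and outside the symbol rule, had 372 FPKM. RPS10, a protein of the small subunit head, had 15.3 FPKM and shares 39.4% of its exon bases with RPS10-NUDT3. RPL10, which sits near the site where peptide bonds form, shares 55.5%, most of it with genes on the opposite strand, and the library kit does not mark strand. RPS29, a zinc-binding small-subunit protein, had 42.6 FPKM over a recovered length of 7472 bases, where its main annotated transcript has 486, and RPL15 was likewise divided by 6452 bases with 1063 in its main transcript. The same held, among others, for RPS24 (2831 bases, main transcript 634), RPS14 (2363 and 652) and RPS19 (2239 and 668). Where the reads of such genes come from the main transcript, the FPKM understates the RNA against other genes. The recovered length is the same in every library, so by itself it does not alter differences between libraries. Whether reads of other transcripts or overlapping genes alter them was not tested. Reads from the many processed pseudogenes of this family may also be split or lost in a way the sources used here do not state.

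The tests below used log2(FPKM + 0.5) in limma, with all 6 doses in 1 fit, and calls required an adjusted p below 0.05 (Benjamini-Hochberg over all 12127 genes). Every comparison with 0 µg/ml shares the same 3 control libraries. Against these, the log2 fold changes of the 75 members were no lower than -0.227 and no higher than 0.164 at any dose. They lay within 0.1 of 0 for 73 members at 1 µg/ml, 60 at 2.5, 46 at 10, 58 at 50 and 71 at 100 µg/ml. At 100 µg/ml, where limma called 15.5% of all genes, it called 0 of the 75 members, with 0 by limma-voom. At an unadjusted p under 0.05 it had 0 higher (13.8% of all genes) and 0 lower (14.3% of all genes). The median log2 fold change over members was -0.013 there (all tested genes -0.0037), and single members ran from -0.21 in RPL36A to 0.11 in RPS27L. The 95% interval stayed within 0.25 of 0 on either side for 71 of 75 members, and the called genes of the whole table had a median absolute log2 fold change of 0.24 at this dose. At 50 µg/ml 1 member was called, RPL7L1, upward, beside 7.47% of all genes.

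At the lower doses 0 members were called at 1 µg/ml (0% of all genes), 0 at 2.5 µg/ml (0%) and 0 at 10 µg/ml (0.0412%), by limma and by limma-voom. The medians over members were 0.014, -0.067 and -0.087 at these doses, and -0.067 at 50 µg/ml, while those of all tested genes were -0.0049, 0.011, 0.016 and 0.0041. Below 0 lay 23 members at 1 µg/ml, 69 at 2.5, 72 at 10, 70 at 50 and 51 at 100 µg/ml. The medians were thus slightly low at the middle doses, by an amount that depends on the scaling and on single libraries. At an unadjusted p under 0.05, 9 members were lower at 2.5 µg/ml (12%, all genes 2%), 22 at 10 µg/ml (29.3%, all genes 4.44%) and 13 at 50 µg/ml (17.3%, all genes 10.9%), and 0 at 1 µg/ml (all genes 1.73%). In the higher direction there were 0 at 1, 0 at 2.5 and 0 at 10 µg/ml (all genes 1.28%, 2.38% and 5.33%) and 1, RPL7L1, at 50 µg/ml (all genes 11%). At 10 µg/ml the 3 libraries lay below all 3 controls for 33 members (44%, all genes 6.84%), at 2.5 µg/ml for 9 (12%, all genes 3.51%) at 50 µg/ml for 3 (4%, all genes 13.3%) and at 100 µg/ml for 2 (2.67%, all genes 16.9%). None of these differences of members passed the adjustment except that of RPL7L1 at 50 µg/ml, and members move together across libraries, so their counts are not independent. The large and small subunits had medians of -0.079 and -0.10 at 10 µg/ml and of -0.013 and -0.011 at 100 µg/ml. After quantile normalization the medians for 2.5, 10 and 50 µg/ml were -0.019, -0.029 and -0.026, and when libraries were scaled on short genes -0.035, -0.028 and -0.016.

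**Figure D2:**
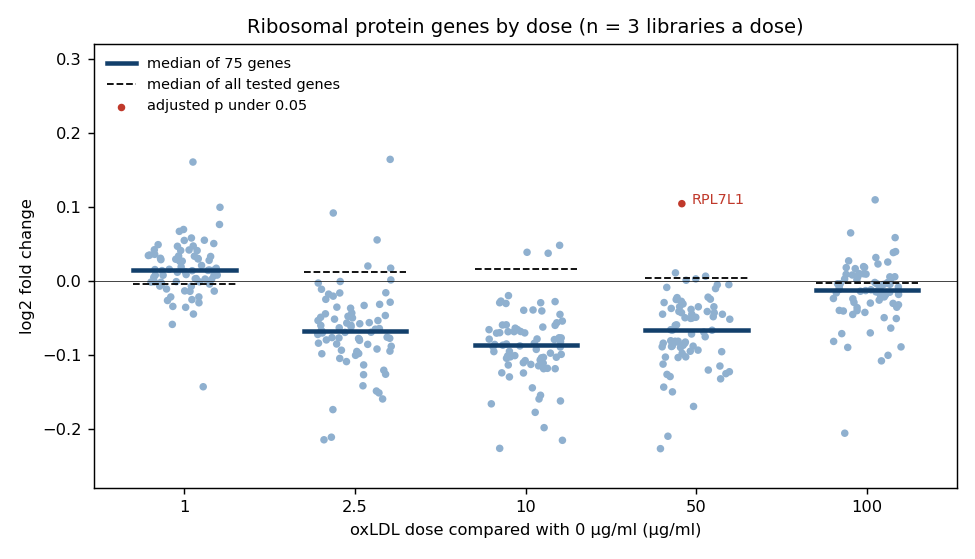
Log2 fold change against 0 µg/ml (vertical axis) for each of the 75 genes (points) at each oxLDL dose (horizontal axis), with the median of these genes (thick lines) and of all tested genes (dashed lines), from 3 libraries a dose. The medians lie at 0.014, -0.067, -0.087, -0.067 and -0.013, and RPL7L1 at 50 µg/ml (0.10, red) is the only point with an adjusted p under 0.05.

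Shifts of whole libraries were as large as those between doses. For each library the deviation of every member from its own mean over 18 libraries was taken on log2(FPKM + 0.5), and the median over members is given. At 0 µg/ml it was -0.007, 0.021 and 0.099 in replicates 1, 2 and 3, and at 1 µg/ml 0.075, 0.026 and 0.053. At 2.5 µg/ml it was 0.022, 0.023 and -0.128, and at 10 µg/ml -0.073, -0.065 and -0.007. For 50 µg/ml it was 0.041, -0.04 and -0.089, and for 100 µg/ml 0.065, -0.014 and 0.01. Replicate 3 at 2.5 µg/ml was the lowest of the 18, with 74 of 75 members below their own mean, and replicate 3 at 0 µg/ml the highest, with 72 above. Within a dose the medians varied with an SD of 0.054 (all doses pooled), and the dose means ran from -0.048 at 10 µg/ml to 0.051 at 1 µg/ml. Without replicate 3 at 2.5 µg/ml, the median log2 fold change over members at that dose was -0.014 in place of -0.067. Without replicate 3 at 0 µg/ml, the medians for 2.5, 10, 50 and 100 µg/ml were -0.033, -0.057, -0.031 and 0.016. The median for 50 µg/ml was -0.105 without replicate 1 and -0.033 without replicate 3 of that dose.

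Other genes moved with the members in these libraries. The median deviation of the other genes shorter than 1500 bases was 0.064 in replicate 3 at 0 µg/ml, 0.07 in replicate 1 at 1 µg/ml and -0.06 in replicate 3 at 2.5 µg/ml, of the same sign as that of the members. Genes longer than 8000 bases went the other way, with -0.062, -0.077 and 0.082 in the same libraries, and the mitochondrial ribosomal protein genes had 0.052, 0.033 and -0.085. The 576 other genes of at least 100 FPKM had 0.041, 0.051 and -0.062, on the same side as the members. Of the members, 49 are themselves shorter than 1500 bases. When libraries were scaled on short genes, the medians of the members in these 3 libraries were 0.037, 0.007 and -0.066. Neither the part of transcript length nor that of expression level in the shifts was tested.

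**Figure D3:**
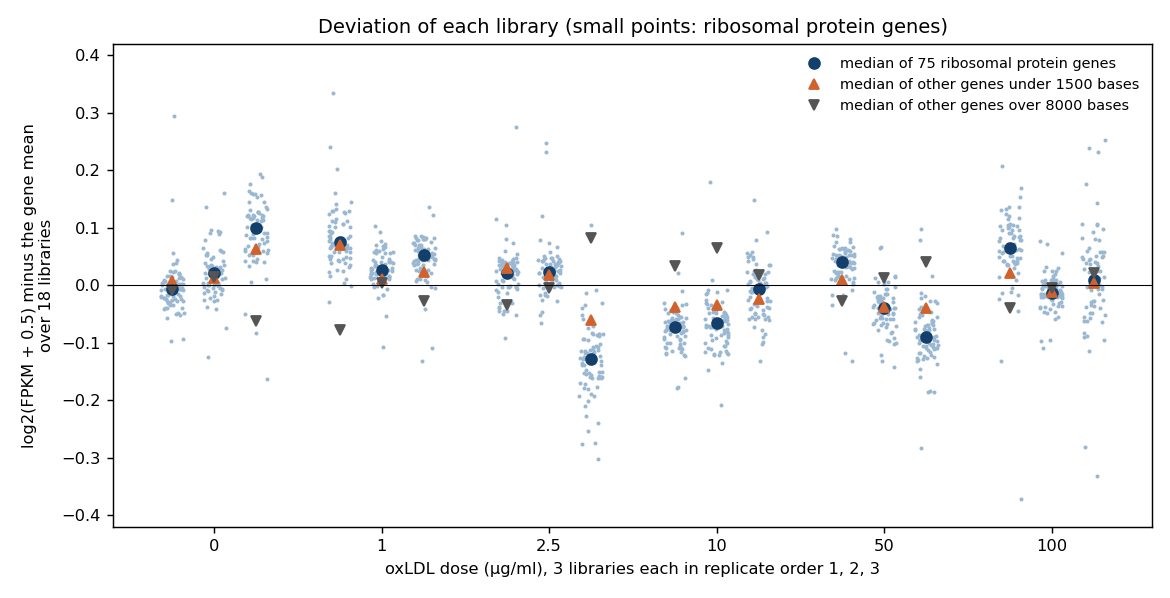
Deviation of each of the 75 genes (small points) from its own mean over 18 libraries, on log2(FPKM + 0.5), by library, with 3 libraries a dose in replicate order. The medians of these genes (circles), of other genes under 1500 bases (upward triangles) and of other genes over 8000 bases (downward triangles) show that members and short genes lay on the same side and long genes on the other in the most shifted libraries, such as replicate 3 at 2.5 µg/ml (-0.128, -0.06 and 0.082).

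The members moved together across libraries. After the dose means were removed, the correlation of a member with the median of the other members over 18 libraries was at least 0.8 for 60 of 75, with a median of 0.9 and the highest value in RPS13, at 0.98. Over 12052 other genes the median correlation with the members was -0.15 (interquartile range -0.49 to 0.22), and 1.88% reached 0.8. These are descriptions, since all points share their libraries, totals and length composition. The within-dose SD of a member had a median of 0.064, against 0.076 over all tested genes and 0.050 over 576 other genes of at least 100 FPKM. The median spread of the members was thus above that of other abundant genes and below that of all genes.

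Below 0.5 lay RPS10 (-0.12), RPL7L1 (0.14), RPL36A (0.18), RPL17 (0.25), RPL39L (0.39), RPL41 (0.47) and RPL26L1 (0.48). RPL36A, RPL17 and RPS10 are the members with the fewest reads, and RPL7L1, RPL39L and RPL26L1 are paralogs. The paralogs RPL22L1 (0.51) and RPS27L (0.75, the same as RPS27) lay above 0.5. RPL10 and RPL38, which also share exon bases with other genes, had 0.9 and 0.66. RPL41 encodes a very short peptide of the large subunit, and its 18 values ran from 718 to 1100 FPKM. Members with a tract at the start had a median correlation of 0.91 (48 genes) and a median level of 780 FPKM, and the 13 without had 0.85 and 329 FPKM. Both levels depend on the recovered lengths described above. For 10 µg/ml the median log2 fold changes of members were -0.09 (with a tract) and -0.041 (without), and for 100 µg/ml -0.014 and -0.004.

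By role, the acidic stalk, which recruits the translation factors, gave RPLP0, its base, at 1820, 1810 and 1870 FPKM without oxLDL and at 1800, 1750 and 1680 FPKM at 100 µg/ml. These groups do not overlap, but the log2 fold change of -0.071 (SE 0.039, adjusted p = 0.263) was not called. RPLP1, which forms the arms of the stalk with RPLP2, had 767, 777 and 837 FPKM without oxLDL and 825, 769 and 798 FPKM at 100 µg/ml, with overlapping values. RPLP2 had 1610, 1610 and 1750 FPKM in the controls, and 1540, 1480 and 1280 FPKM at 2.5 µg/ml. The values were 1440, 1500 and 1490 FPKM for 10 µg/ml, 1580, 1500 and 1400 FPKM for 50 µg/ml, and 1660, 1610 and 1640 FPKM for 100 µg/ml. It was below all controls at 2.5, 10 and 50 µg/ml and within their range at the highest dose. The test over all doses called 3 members (15.4% of all genes were called), RPS27L, RPL38 and RPLP2, and RPLP2 had an adjusted p of 0.0461. That call was lost when any 1 of 15 of the 18 libraries was left out, with an adjusted p of up to 0.0888 without replicate 3 at 100 µg/ml. The test over all doses called 0 members without replicate 2 at 10 µg/ml or without replicate 1 or 3 at 100 µg/ml, and 6 without replicate 1 at 50 µg/ml.

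RPL38, a small protein of the large subunit whose loss alters the skeleton in mice, was chosen for description after its values were seen, because it is 1 of these 3. It had 725, 741 and 784 FPKM in the controls. The values were 699, 696 and 645 FPKM for 2.5 µg/ml, 693, 691 and 678 FPKM for 10 µg/ml, 728, 689 and 646 FPKM for 50 µg/ml, and 793, 718 and 847 FPKM for 100 µg/ml. The lowest control thus exceeded all libraries at 2.5 and 10 µg/ml, while those at 100 µg/ml overlapped the controls (adjusted p over all doses 0.0349). It shares 17.7% of its exon bases with the opposite-strand gene MGC16275, and its call was lost when any 1 of 10 libraries was left out, with an adjusted p of up to 0.0913 without replicate 1 at 100 µg/ml. RPS21 had 1860, 2110 and 2110 FPKM in the controls, 1830, 1880 and 1670 FPKM for 2.5 µg/ml and 1670, 1750 and 1760 FPKM for 10 µg/ml. Its values were 1990, 1760 and 1660 FPKM for 50 µg/ml and 2100, 1870 and 2230 FPKM for 100 µg/ml. It lay below all controls at 10 µg/ml and overlapped them at the other doses named here, and it was not called (adjusted p over all doses 0.0586).

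RPL5 and RPL11, which carry the 5S ribosomal RNA into the large subunit and bind MDM2 when assembly is disturbed, lay close to the controls. RPL5 had 1140, 1200 and 1260 FPKM without oxLDL and 1220, 1170 and 1190 FPKM at 100 µg/ml, a log2 fold change of -0.0024 (SE 0.046). RPL11 had 1180, 1220 and 1310 FPKM and 1290, 1200 and 1240 FPKM, a log2 fold change of 0.0097 (SE 0.055). For both, the 95% intervals at 100 µg/ml reached no farther than -0.106 and 0.125. RPL3, whose protein lies by the peptide bond-forming centre, had 1250, 1300 and 1290 FPKM without oxLDL and 1240, 1210 and 1200 FPKM at 100 µg/ml. Its groups do not overlap, and the log2 fold change of -0.072 (SE 0.036) was not called (adjusted p = 0.207).

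In the small subunit, RPS6, the ribosomal target of the S6 kinases, had 1530, 1530 and 1620 FPKM at 0 and 1590, 1540 and 1500 FPKM at 100 µg/ml. RPSA, also known as a laminin receptor, had 1490, 1480 and 1550 FPKM and 1560, 1500 and 1450 FPKM. RPS27A, made as a fusion with ubiquitin, had 900, 982 and 1000 FPKM and 982, 917 and 955 FPKM. RPS19, the gene most often mutated in Diamond-Blackfan anaemia, had 377, 402 and 419 FPKM and 420, 394 and 409 FPKM. In all 4 the groups overlapped, and the log2 fold changes at 100 µg/ml were -0.016, -0.0051, -0.013 and 0.031. RPS29 varied most between libraries of a dose among well-read genes, with 45.1, 38.7 and 34.8 FPKM at 50 µg/ml and 47.8, 39.7 and 50.7 FPKM at 100 µg/ml. RPS10 and RPL17, which also had a large spread within doses, ran from 13.6 to 18.6 FPKM and from 9.18 to 13.9 FPKM over the 18 libraries.

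Some ribosomal proteins have a second, related gene, and both calls by dose or slope fell on such paralogs. RPL7L1, a nucleolar relative of RPL7 with a role in assembly of the large subunit, had 94.9, 94.7 and 93.2 FPKM without oxLDL. At 50 µg/ml it had 101, 101 and 102 FPKM, and at 100 µg/ml 97.2, 96.9 and 96.3 FPKM. All libraries at both doses lay above the controls, which held for 1 member each at 50 µg/ml (14.9% of all genes) and 100 µg/ml (16.5%), and the rise at 50 µg/ml was 0.10 on the log2 scale (SE 0.030, adjusted p = 0.0466). At 100 µg/ml the log2 fold change was 0.038 (SE 0.030, adjusted p = 0.465) and was not called. The call at 50 µg/ml was lost in 19 of 31 other settings, 15 of which left out 1 library, with an adjusted p of up to 0.148 without replicate 3 at 50 µg/ml. Without replicate 3 at 2.5 µg/ml, 3 members were called at 50 µg/ml, with RPL37 and RPLP2 lower beside RPL7L1, and without replicate 1 at 50 µg/ml 2 were, RPS27 and RPS29, both lower. RPL37 is named because it is 1 of these, after its values were seen. RPL7, in the same libraries, had 901, 881 and 907 FPKM at 0 and 910, 871 and 844 FPKM at 50 µg/ml, which overlap. The log2 ratio of RPL7L1 over RPL7 was -3.24 at 0 µg/ml (libraries from -3.28 to -3.21) and -3.10 at 50 µg/ml (-3.16 to -3.04). It was -3.15 at 10 µg/ml (-3.18 to -3.13), also above the controls, and -3.17 at 100 µg/ml (-3.22 to -3.15), which overlaps them.

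RPL26L1, which differs from RPL26 at few residues, had the only called slope over the dose series, where 25.6% of all genes were called. It had 61.3, 58.1 and 66 FPKM at 0, 60.6, 58.5 and 56.2 at 10, 59.3, 56.8 and 56.1 at 50 and 59.2, 58.5 and 56.1 FPKM at 100 µg/ml. It fell by 0.017 on the log2 scale for each unit of log2(dose + 1) (SE 0.0049, adjusted p = 0.0131), although the groups overlap at every dose. Of 30 other settings, the call was lost in 1, the scaling on short genes (adjusted p = 0.0599). RPL26 had 1240, 1240 and 1320 FPKM at 0 and 1320, 1190 and 1260 FPKM at 100 µg/ml and a slope of -0.0041 (adjusted p = 0.688). Whether the slopes of RPL26 and RPL26L1 differ was not tested. Without replicate 3 at 2.5 µg/ml, 7 members had a called slope in place of 1, all lower with dose, among them RPLP0, RPL3 and RPL22L1. There were 3 without replicate 1 at 50 µg/ml, and 2 without replicate 1 at 0, replicate 1 at 10 or replicate 1 or 3 at 100 µg/ml.

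RPS27L, which replaces RPS27 in some ribosomes, had 14.9, 16 and 16.1 FPKM at 0 and 13.5, 13.8 and 14.3 FPKM at 10 µg/ml. At 100 µg/ml it had 17.8, 15.7 and 17.4 FPKM, of which replicate 2 falls among the controls. Its adjusted p over all doses was 0.0193, lost when replicate 1 or 2 of the 10 µg/ml group or replicate 1 or 3 of the 100 µg/ml group was left out (up to 0.0668 without replicate 3 at 100 µg/ml). The log2 fold change at 100 µg/ml alone was 0.11 (SE 0.053, adjusted p = 0.187), the highest of any member. RPS27 had 713, 755 and 756 FPKM at 0 and 755, 691 and 756 FPKM at 100 µg/ml. The log2 ratio of RPS27L over RPS27 was -5.52 at 0 (from -5.53 to -5.51) and -5.40 at 100 µg/ml (from -5.42 to -5.37), so the ratios of these doses do not overlap. Among all single genes, 16.5% lay above all controls at 100 µg/ml and 16.9% below. At 50 µg/ml the ratio ran from -5.49 to -5.31, also above the controls. For 1 µg/ml the ratio ran from -5.56 to -5.41, which reaches into the range at 100 µg/ml.

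RPL22L1 over RPL22, RNA-binding proteins of the large subunit, had a mean log2 ratio of -4.40 in the controls (from -4.45 to -4.34) and of -4.50 for 100 µg/ml (from -4.50 to -4.49), which do not overlap. Of all single genes, 16.9% lay below all controls at that dose. Libraries for 10 µg/ml ran from -4.52 to -4.30, across both ranges. RPL22L1 itself had 12.1, 13.3 and 13.6 FPKM and 12.3, 11.6 and 12.7 FPKM, which overlap, and a slope of -0.018 (adjusted p = 0.062). RPL39L, whose protein is known from male germ cells, had 29.2, 31.2 and 34.1 FPKM at 0 and 30.2, 32.9 and 33 FPKM at 100 µg/ml, beside 1040, 1050 and 1060 FPKM and 1110, 1000 and 1050 FPKM of RPL39. The ratios of RPL26L1, RPL39L, RPL7L1 and RPL36AL over their partners overlapped between 0 and 100 µg/ml. RPL3L and RPL10L are not analysed here.

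**Figure D4:**
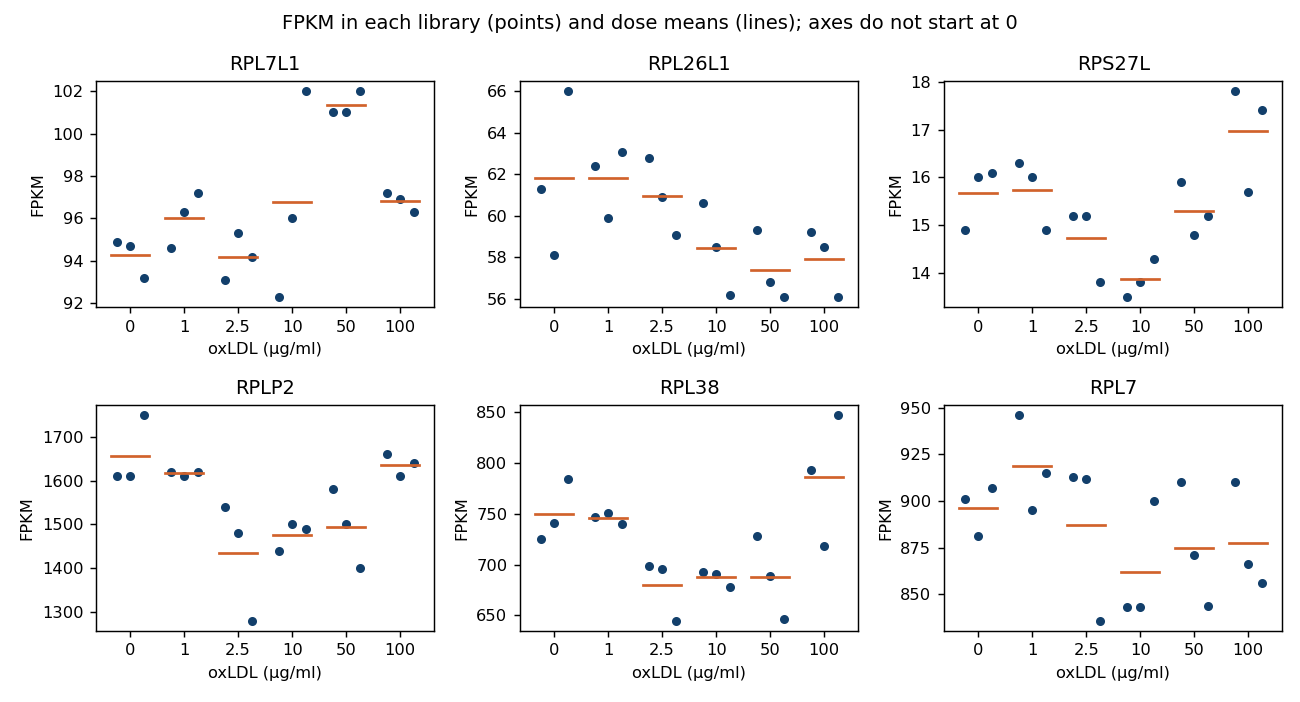
FPKM in each of 18 libraries (points) and the mean of each dose (lines) for 6 genes, by oxLDL dose; the axes do not start at 0. RPL7L1 reaches 101 to 102 FPKM at 50 µg/ml above controls of 93.2 to 94.9, RPL26L1 declines with dose within overlapping values, RPS27L, RPLP2 and RPL38 are low at 2.5 or 10 µg/ml and not at 100 µg/ml, and RPL7 overlaps throughout.

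Genes that act on the same process were read from the same fit. Among ribosomal proteins that the symbol rule leaves out, RACK1, FAU and RPL36AL were called neither at 100 µg/ml nor on the slope, by limma or limma-voom, with log2 fold changes of -0.018, 0.036 and -0.024 at 100 µg/ml (adjusted p = 0.796, 0.741 and 0.776). Of 36 ribosome assembly genes tested, 6 were higher at 50 µg/ml (7.47% of all genes were called in either direction), 11 at 100 µg/ml (15.5%) and 23 had a positive slope (25.6%). None was called lower in these comparisons, and the others did not pass the test. The median log2 fold change over all 36 was 0.083 at 50 and 0.099 at 100 µg/ml. RRP12, needed for export of both subunits, went from 19.8 ± 0.86 (SD, n = 3) to 23.5 ± 0.82 FPKM (log2 fold change 0.24, adjusted p = 0.000462). BYSL, which acts in small subunit maturation, went from 74.9 ± 0.49 to 86.3 ± 0.20 FPKM (0.20, adjusted p = 0.000536). NOP2, a methyltransferase of the large ribosomal RNA, went from 39.9 ± 0.52 to 45.4 ± 1.7 FPKM (0.18, adjusted p = 0.0013). The median deviation of the assembly genes was -0.03, -0.013 and -0.028 in the controls and 0.065, 0.064 and 0.07 at 100 µg/ml, groups that do not overlap, where those of the ribosomal proteins do. The count at 100 µg/ml was 6 without control replicate 1 or 2 or without replicate 3 of the 100 µg/ml group.

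**Figure D5:**
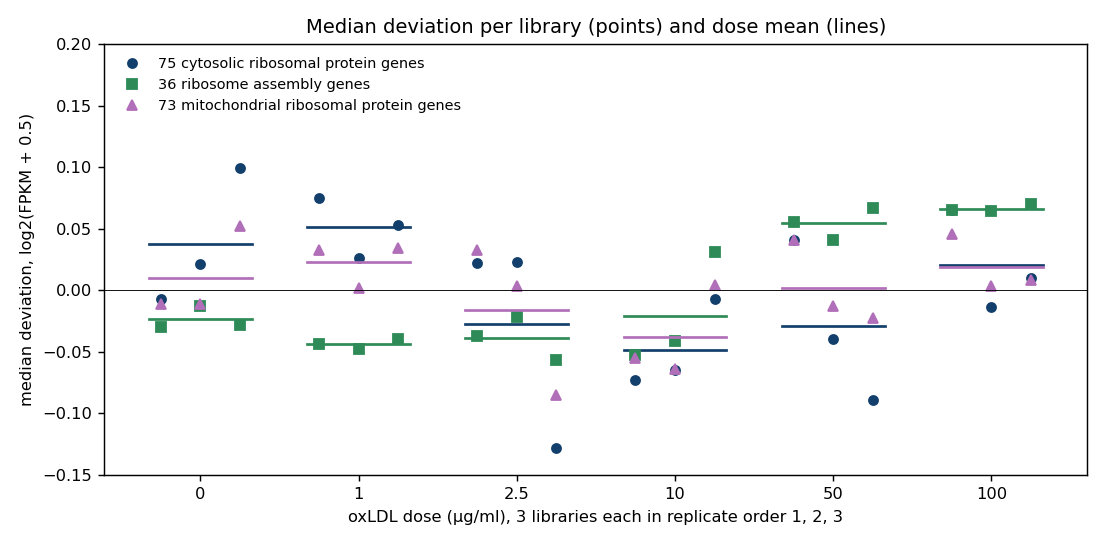
Median deviation from the gene means over 18 libraries, on log2(FPKM + 0.5), in each library (points) with the mean of each dose (lines), for the 75 ribosomal protein genes, 36 ribosome assembly genes and 73 mitochondrial ribosomal protein genes. The assembly genes lie at 0.064 to 0.07 in all 3 libraries at 100 µg/ml and below 0 in the controls, and the ribosomal proteins spread over both sides of 0 at both doses.

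Of 18 elongation factors and other TOP messages tested, 0 were higher and 2 lower at 100 µg/ml, where 15.5% of all genes were called: PABPC1, the poly-A binding protein, from 403 ± 5.6 to 367 ± 5.9 FPKM (log2 fold change -0.13, adjusted p = 0.00195), and HNRNPA1, a splicing regulator, from 595 ± 3.4 to 537 ± 7.8 FPKM (-0.15, adjusted p = 0.00587). On the slope, where 25.6% of all genes were called, these 2 were lower and 2 were higher, the initiation factor subunit EIF3B (0.015 per unit of log2(dose + 1), adjusted p = 0.00417) and the elongation factor EEF2 (0.0098, adjusted p = 0.0281), and without replicate 3 of the 100 µg/ml group 2 slopes were called. EIF3B and EEF2 were chosen after their values were seen.

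Among 13 genes of mTOR and LARP1 control, 3 were higher and 1 lower at 100 µg/ml (15.5% of all genes called), and 4 were higher and 2 lower on the slope (25.6%). LARP1, which binds the tract shown above, went from 18.6 ± 0.54 to 22.1 ± 1.0 FPKM (0.25, SE 0.049, adjusted p = 0.00259). RHEB, which activates mTOR, had a log2 fold change of 0.16 (adjusted p = 0.015), and EIF4E, which binds the cap, of 0.13 (adjusted p = 0.037). TSC2, which restrains RHEB, had one of -0.19 (adjusted p = 0.021). On the slope LARP1, RHEB, EIF4E and TSC1, a partner of TSC2, were higher. DDIT4, a stress-induced inhibitor of mTOR (-0.031, adjusted p = 0.00358), and MLST8, a subunit of the mTOR complexes (-0.018, adjusted p = 0.0302), were lower, and these and TSC1 were chosen after their values were seen. Slope calls numbered 3 without control replicate 3 and 2 without replicate 3 of the 100 µg/ml group. The calls for 100 µg/ml numbered 1 without replicate 1 at 0 µg/ml, and 2 without replicate 3 at 0 µg/ml or replicate 1 at 100 µg/ml. Of 11 tested host genes of small nucleolar RNAs, whose spliced RNAs also carry TOP tracts, 1 was called at 100 µg/ml (15.5% of all genes), SNHG16, which was higher (0.22, adjusted p = 0.0161), a call lost without control replicate 1 or 2 or without replicate 3 of the 100 µg/ml group. On the slope (25.6% of all genes) SNHG16 was higher (0.036, adjusted p = 0.00328) and SNHG12, chosen after its values were seen, lower (-0.022, adjusted p = 0.0318). The slope calls here numbered 1 without control replicate 1, without replicate 1 or 2 of the 1 µg/ml group, without replicate 1 of the 50 µg/ml group or without replicate 2 of the 100 µg/ml group.

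The mitochondrial ribosome, encoded by 73 nuclear genes in the table, gave 2 higher and 1 lower at 100 µg/ml (15.5% of all genes called), with a median log2 fold change of 0.007, and 4 positive and 7 negative slopes (25.6% of all genes called). MRPL52 (0.18, adjusted p = 0.0241) and MRPS35 (0.15, adjusted p = 0.039) were higher and MRPL11 (-0.20, adjusted p = 0.00853) lower, all 3 parts of that ribosome. The count was 0 without replicate 3 at 100 µg/ml and 5 without replicate 3 at 2.5 µg/ml or replicate 3 at 10 µg/ml. At 10 µg/ml its median was -0.052, on the same side as that of the cytosolic genes.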

How the data were processed

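RNA of 18 HMC3 libraries was enriched on poly-T beads, made into NEBNext Ultra libraries and sequenced as paired ends, per the labels' protocols. The authors deposited FPKM per gene symbol. Tools listed in the submitters' processing notes are DESeq2, featureCounts and HISAT2 2.0.5, with hg38 as genome build. Their roles, the annotation and the treatment of strand are not given in the sources used here. Whole reads could be recovered from the FPKM steps for 13992 of 13992 genes (within 0.05 reads), which gave totals and lengths, and counting error is the lower limit of each value's error.

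A gene entered the tests if 3 or more libraries reached 0.5 FPKM (12127 genes did, 1865 did not). Values were log2(FPKM + 0.5). limma 3.58.1 under R 4.3.3 fitted a mean for each dose with a variance trend, leaving 12 degrees of freedom. Tests were two-sided. The slope was fitted on log2(dose + 1), and a moderated F test covered all doses. The same steps were run on simulated data in which genes varied independently of each other. Those data hold no shifts shared by many genes of a library, so the run does not cover that case. The deposited unit is FPKM, so the main test is not a count model, and the recovered reads served limma-voom as another setting. Transcript lengths and exon overlaps are from GENCODE 29, and start sequences from RefSeq (61 of 75 members matched). The recovered length equalled that of GENCODE 29 for 30.4% of 345 single-exon genes. The deposited values thus rest at least in part on other gene models, and the overlaps and main transcripts given here may differ from those of their counting. Replicates of a dose differed by more than sampling noise.

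Members called at 50 or 100 µg/ml or on the slope are named. So are the 3 highest and 3 lowest by level, listed paralog pairs, the stalk proteins, RPL5, RPL11, RPS6, RPSA, RPS27A and RPS19, the 3 with the largest spread within doses at 10 FPKM or more, and up to 3 called genes of each list with the smallest adjusted p at 100 µg/ml. The members and gene lists were chosen with earlier results of these data known. Other settings were other scalings, filters, pseudocounts, limma-voom, a replicate block and leaving out each library. Some genes of these lists are not reported here.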

Additional observations from a re-analysis of the deposited data

How the results depend on the processing

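Counts of 0 called members at 1, 2.5, 10 and 100 µg/ml held in all 31 other settings. At 50 µg/ml the count of 1 became 0 with median of ratios or upper quartile scaling, with 2 doses in the fit or with no variance trend, and 2 after quantile normalization, with the total of non-members or with limma-voom on recovered reads. It ran from 0 to 3 with 1 library left out. The slope count of 1 became 5 after quantile normalization and with the total of non-members, 3 with limma-voom, and 1 to 7 with 1 library left out. The count over all doses became 1 with no variance trend, 6 with limma-voom and 0 to 6 with 1 library left out. The median over members at 10 µg/ml was -0.029 after quantile normalization and -0.028 with scaling on short genes, a setting added after the library shifts were seen. That scaling gave library medians of 0.037 (replicate 3, 0 µg/ml), 0.007 (replicate 1, 1 µg/ml) and -0.066 (replicate 3, 2.5 µg/ml). It also gave 2 calls among small nucleolar RNA hosts and 7 among mitochondrial ribosomal proteins at 100 µg/ml, and quantile normalization gave 1 among TOP messages and 6 among mitochondrial ribosomal proteins. With 1 library left out, calls at 100 µg/ml ran from 6 to 13 in ribosome assembly, from 1 to 5 in mTOR and LARP1 control, from 0 to 1 in small nucleolar RNA hosts and from 0 to 5 in mitochondrial ribosomal proteins. Slope calls then ran from 2 to 6 among TOP messages, from 2 to 7 in mTOR and LARP1 control and from 1 to 3 among small nucleolar RNA hosts. The cause of these differences was not tested. Of 1856 values of single members over these settings, 1792 were labelled the same, 56 lost a call, 3 gained a call, 5 moved and 0 reversed. Most of these values were not called in the main fit and so could not lose a call. The values are those of the named members at 50 and 100 µg/ml, the slope of RPL26L1 and the all-dose tests of RPLP2, RPL38 and RPS27L. Size was compared only for values not called, against the within-dose SD of the gene. A change of sign counted as reversed only where the value was called in the main fit or in that setting. Values not called could change sign, as that of RPLP0 at 50 µg/ml did (-0.0498 to 0.066 over the settings). All 56 losses fell on members called in the main fit. RPL7L1 at 50 µg/ml lost its call in 19 of 31 settings and the slope of RPL26L1 in 1 of 30. Over all doses, RPLP2 lost it in 19 of 30, RPL38 in 13 of 30 and RPS27L in 4 of 30.

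Same-numbered libraries did not deviate together: over 45 pairs the correlation had a mean of 0.017 and a lowest value of -0.33, and 5 of 18 libraries correlated best with their own number. With the replicate number as a block, called members numbered 1 in place of 3 over all doses, 1 at 50 µg/ml and 1 on the slope. Members at few reads (RPL36A, RPL17 and RPS10) carry more counting error than the other members. How much of their spread it makes up was not tested.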
